A study of Homo sapiens with 6 samples.

Results

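The annexins are described here in HK-2 cells, an immortalised line of human proximal tubule epithelium, with and without phosphoramidon. The set holds 10 of the 38126 genes in the files, given by name, with no threshold on their values: ANXA1 to ANXA7, ANXA10, ANXA11 and FPR1, a receptor for annexin A1. Earlier results of these data were known when the set was chosen. Phosphoramidon inhibits zinc metallopeptidases, among them neprilysin and endothelin-converting enzyme. Total RNA was sequenced from 3 libraries of untreated cells and 3 libraries of cells treated for 24 h. No dose is stated. Both groups grew in a keratinocyte medium without serum, to which EGF and bovine pituitary extract were added, and were close to confluent when treatment began. The untreated titles also carry the letters CSE, which are not explained, and these libraries were taken as untreated from their treatment label. No label states that replicates were separate cultures, so each p-value measures the spread between libraries, which may be technical.

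Annexins are cytosolic proteins that bind acidic phospholipids when calcium rises, and they help organise membrane domains, vesicle traffic and the resealing of torn plasma membrane. Several work with small calcium-binding proteins of the S100 family, as annexin A2 does with S100A10. Annexin A1 can also leave the cell, and its amino-terminal peptides activate formyl peptide receptors such as FPR1, through which it limits leukocyte recruitment.

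Levels are FPKM, fragment counts scaled by gene length and by the assigned fragments of the library. Assigned totals recovered from the values ran from 18690097 to 24919569 fragments per library, so that 1 fragment on a gene of 1 kb was worth 0.0401 to 0.0535 FPKM. PAX8, a renal epithelial transcription factor, lay at 61.5 to 64.9 FPKM in untreated libraries and 68.7 to 71.7 FPKM with phosphoramidon. Most defining markers of a differentiated proximal tubule were at or near 0: LRP2 did not exceed 0.00635 FPKM, HNF4A 0.00551 FPKM, AQP1 0.124 FPKM and SLC34A1 0.218 FPKM. Of the 4 tested proximal tubule markers, SLC34A1 (log2 fold change -0.80, limma adjusted p = 0.017) and GGT1 (-0.62, limma adjusted p = 0.022), the latter at 0.452 to 1.04 FPKM, fell. The summed level of 5 epithelial markers was 328 to 365 FPKM in untreated libraries and 200.3 to 215 FPKM with phosphoramidon. The 3 of the 5 that fell were the keratins KRT8, KRT18 and KRT19. EPCAM (log2 fold change -0.10, limma adjusted p = 0.14) and CDH1 (0.22, limma adjusted p = 0.37) did not pass. Of 3 fibroblast markers, PDGFRB and DCN fell and PDGFRA was listed at 0 in 3 libraries, with a summed level of 0.787 to 0.936 FPKM without and 0.348 to 0.399 FPKM with phosphoramidon. For comparison, 17.9% of all tested genes were called lower (limma adjusted p below 0.05), and 26.0% of those with a mean of at least 5 FPKM. The part of these marker changes in the annexin results was not tested. In bulk RNA, fewer cells of a type and less RNA per cell cannot be told apart.

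Transcripts of 6 of the 8 tested annexins of the set fell with phosphoramidon, and FPR1 had the lowest fold change among the members. ANXA9, outside the set, was also tested and did not pass (limma adjusted p = 0.78), and counts of tested annexins below leave it out. In a limma model with Benjamini-Hochberg adjustment over 16175 tested genes, 7 of the 9 tested members passed an adjusted p of 0.05, and all 7 were lower. They were FPR1, ANXA1, ANXA2, ANXA3, ANXA4, ANXA6 and ANXA11. ANXA5 and ANXA7 did not pass, and ANXA10 was too low to be tested. Across all tested genes 33.6% were called in either direction and 17.9% were called lower. Among tested genes with a mean of at least 5 FPKM, where the 8 tested annexins lie, 45.6% were called and 26.0% were called lower. The median log2 fold change was -0.37 over the 9 tested members, -0.33 over the 8 tested annexins and 0.01 over all tested genes. The median over all genes was 0.07 when no factor was applied between libraries, and 2169 genes were then called lower and 3647 higher, against 2901 and 2531 with the factors.

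**Figure D1:**
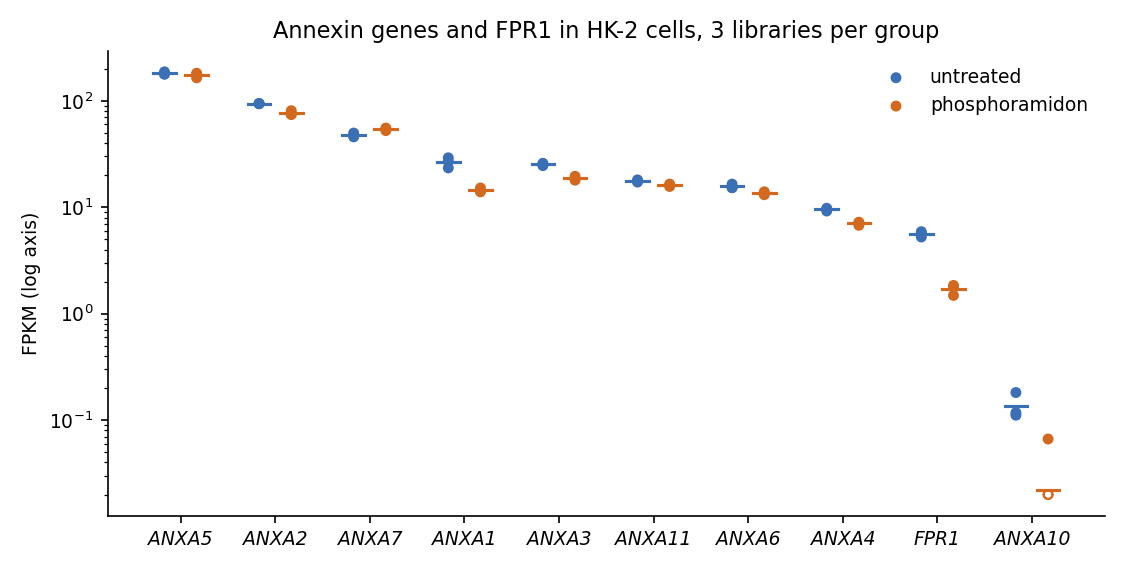
FPKM of the 9 annexin genes and FPR1 on a log axis, with 1 point per library (blue untreated, orange phosphoramidon) and a line at each group mean. ANXA5 and ANXA2 are the highest, FPR1 shows the widest gap among the tested genes, and the open point marks 2 libraries in which ANXA10 was 0, drawn at 0.02 because a log axis has no 0.

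The start regions of the members differ in base composition and in short promoter motifs. The sites below were chosen because they occur in members that fell, as 7 of the 9 tested members did, and not every match is printed. RefSeq promoter windows of 300 bases (250 before and 50 after the start, GRCh38.p14) were found for 10 of 10 members, 14 windows in all. The AP-1 site TGANTCA, bound by Fos and Jun proteins, reads the same on both strands. It was in 2 of the 14 member windows, those of FPR1 and ANXA2, and in 7.71% of 35116 windows. The TATA box TATAAA was searched like the other motifs on both strands. It was in 4 of the 14 member windows, of ANXA1, ANXA2, ANXA10 and ANXA11, and in 11.5% of all windows. Capitals mark the motif in each 30-base stretch, given 5′ to 3′ on the strand of the gene. They lie at chr19:51751866-51751895 (minus) for FPR1, chr15:60398095-60398124 and chr15:60398000-60398029 (minus) for ANXA2 and chr9:73151822-73151851 (plus) for ANXA1.
FPR1, AP-1 site: tcattagagccTGAGTCActctccccagga
ANXA2, AP-1 site: gcgggccggggTGAGTCAcccctgacttgg
ANXA2, TATA box: ggatgtggcgggTATAAAagccccacccag
ANXA1, TATA box: cctttaaaatccTATAAAatcagaagccca

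The AP-1 match of FPR1 began 6 bases before its RefSeq start and that of ANXA2 began 127 bases before its own. The RefSeq start of FPR1, at 51751878, lies inside the annotated gene, which on the minus strand begins at 51804110. The TATA matches of ANXA1 and ANXA2 both began 31 bases before the start. The ANXA2 window also held 3 overlapping GC boxes (GGGCGG), while neither FPR1 nor ANXA1 held one. This motif was in 7 of the 14 member windows, from 6 members, and in 45.0% of all windows. GC content was 37.7% for ANXA1, 48.3% for FPR1 and 76.0% for ANXA2, against a median of 58.7% over all windows. The E-box CACGTG, the last of 4 motifs searched, was in 2 of the 14 member windows, of ANXA4 and ANXA6, and in 7.26% of all windows. These matches are descriptions of sequence, and which start site the cells used was not tested.

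FPR1 (ENSG00000171051, chr19:51745172-51804110 on the minus strand, GRCh38) encodes a G protein-coupled receptor for formylated peptides that is best known from neutrophils. It had 5.69, 5.25 and 5.89 FPKM in the untreated libraries and 1.49, 1.84 and 1.77 FPKM with phosphoramidon. All 3 untreated libraries were above all 3 treated ones, on 331 to 379 fragments against 72 to 119. The mean fell by 69.7%, from 5.61 ± 0.327 to 1.70 ± 0.189 FPKM (SD, n = 3 each). The log2 fold change was -1.74 ± 0.09 (SE; 95% interval -1.95 to -1.53; limma adjusted p = 8.7e-06). It ranked 21 among the 16175 tested genes, counted from the lowest log2 fold change. FPR1 was also the only member whose change exceeded 1.5-fold in limma's treat test (adjusted p = 0.00040), which called 0.804% of all tested genes in either direction.

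Leukocyte markers were near 0 in these cells. PTPRC, which encodes the leukocyte antigen CD45, was listed at 0 in 5 of 6 libraries, and the 8 markers together summed to 0.686 to 1.03 FPKM in untreated libraries and 0.597 to 0.833 FPKM with phosphoramidon, most of it CD14. FPR1 alone was higher than that sum in every library. The related receptors were hardly detected, FPR2 on 2 to 12 fragments and FPR3 on 0 or 1. FPR2 lies within the FPR1 locus on the other strand and shares no exon with it.

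ANXA1 (ENSG00000135046, chr9:73151757-73170393, plus strand), the glucocorticoid-induced annexin that restrains inflammation, had 23.4, 27.0 and 29.1 FPKM in untreated libraries and 13.9, 14.2 and 15.2 FPKM with phosphoramidon. The groups did not overlap, and the untreated libraries were the more spread. The mean fell by 45.6%, from 26.5 ± 2.89 to 14.4 ± 0.648 FPKM, with a log2 fold change of -0.94 ± 0.07 (95% interval -1.10 to -0.77; limma adjusted p = 5.4e-05). It had the lowest log2 fold change of the 8 tested annexins. Against a 1.5-fold change the adjusted p was 0.057, or 0.043 when the scaling factors came from all genes instead of the tested ones.

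ANXA3 and ANXA4 fell by similar proportions: the mean of ANXA3 fell by 26.1% and that of ANXA4 fell by 26.0%. ANXA3 (ENSG00000138772, chr4:78551519-78610451, plus strand), an annexin linked to cell growth and angiogenic signalling, had 25.2, 24.6 and 25.9 FPKM without and 17.9, 18.4 and 19.5 FPKM with phosphoramidon. ANXA4 (ENSG00000196975, chr2:69644425-69827100, plus strand), an annexin abundant in secretory and absorptive epithelia, had 9.77, 9.21 and 9.58 FPKM without and 7.15, 7.22 and 6.76 FPKM with the inhibitor. In neither gene did the groups overlap. Their log2 fold changes were -0.50 ± 0.04 (limma adjusted p = 9.1e-05) for ANXA3 and -0.50 ± 0.06 (limma adjusted p = 0.00031) for ANXA4.

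ANXA2 (ENSG00000182718, chr15:60347134-60402883, minus strand) encodes a protein that with S100A10 forms a surface complex, which binds plasminogen and its activator. The gene had 93.8, 94.2 and 93.9 FPKM in untreated libraries and 80.6, 74.9 and 74.1 FPKM with phosphoramidon. The SD of the untreated libraries was 0.164 FPKM, and every treated library was below them. The mean fell by 18.5% and the log2 fold change was -0.37 ± 0.05 (95% interval -0.47 to -0.26; limma adjusted p = 0.00059). Reads of ANXA2 can be confused with those of its processed pseudogenes. ANXA2P2 held 13 to 27 fragments against 12799 to 20564 for ANXA2, ANXA2P1 held 0 to 4, and ANXA2P3 was listed at 0 in every library. ANXA2P2 itself did not pass (limma adjusted p = 0.093), but did without phosphoramidon replicate 1 (adjusted p = 0.0074).

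ANXA6 and ANXA11 fell by less. ANXA6 (ENSG00000197043, chr5:151100712-151157882, minus strand), the annexin with a duplicated core, which acts in cholesterol and endosome traffic, had 15.3, 16.5 and 15.3 FPKM without and 13.4, 13.1 and 14.0 FPKM with phosphoramidon. Its log2 fold change was -0.28 ± 0.04 (limma adjusted p = 0.0017). ANXA11 (ENSG00000122359, chr10:80150889-80205572, minus strand), whose protein tethers RNA granules to lysosomes and binds S100A6, had 18.1, 17.2 and 17.6 FPKM without and 16.1, 15.7 and 16.5 FPKM with phosphoramidon, a log2 fold change of -0.20 ± 0.04 (limma adjusted p = 0.0090). For both genes each treated library was below each untreated one.

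ANXA5 did not pass the test. ANXA5 (ENSG00000164111, chr4:121667955-121697113, minus strand), which binds exposed phosphatidylserine and serves as a probe of dying cells, had 187, 178 and 178 FPKM in untreated libraries and 181, 176 and 164 FPKM with phosphoramidon. The groups overlapped, since the first treated library was above 2 of the untreated ones. The log2 fold change was -0.13 ± 0.05 (95% interval -0.25 to -0.01; limma adjusted p = 0.097). Without that treated library it was -0.17 with an adjusted p of 0.043.

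ANXA7 was the only tested member with a positive log2 fold change. ANXA7 (ENSG00000138279, chr10:73375101-73414076, minus strand), also called synexin and known for fusing secretory vesicles, had 45.8, 47.5 and 49.7 FPKM without and 52.4, 53.8 and 55.4 FPKM with phosphoramidon. The deposited values did not overlap, yet after scaling between libraries the log2 fold change was 0.10 ± 0.04 (95% interval 0.01 to 0.20; limma adjusted p = 0.079). With no factor between libraries it was 0.18 with an adjusted p of 0.011, and without untreated replicate 3 it was 0.14 with an adjusted p of 0.040. An antisense gene, AL512656.1, overlaps its exons and had a mean of 0.626 FPKM, and whether counting used strand is not given in the sources used here.

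ANXA10 (ENSG00000109511, chr4:168092515-168187690, plus strand), an annexin of the stomach lining that lacks most calcium-binding sites, was close to the detection limit. It held 5, 8 and 5 fragments in untreated libraries and 0, 3 and 0 with phosphoramidon, or 0.117, 0.182 and 0.111 FPKM against 0, 0.0664 and 0 FPKM. The counts did not overlap between groups, but they were below the 10 fragments required in at least 3 libraries. When no filter on low values was applied, the adjusted p was 0.12.

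**Figure D2:**
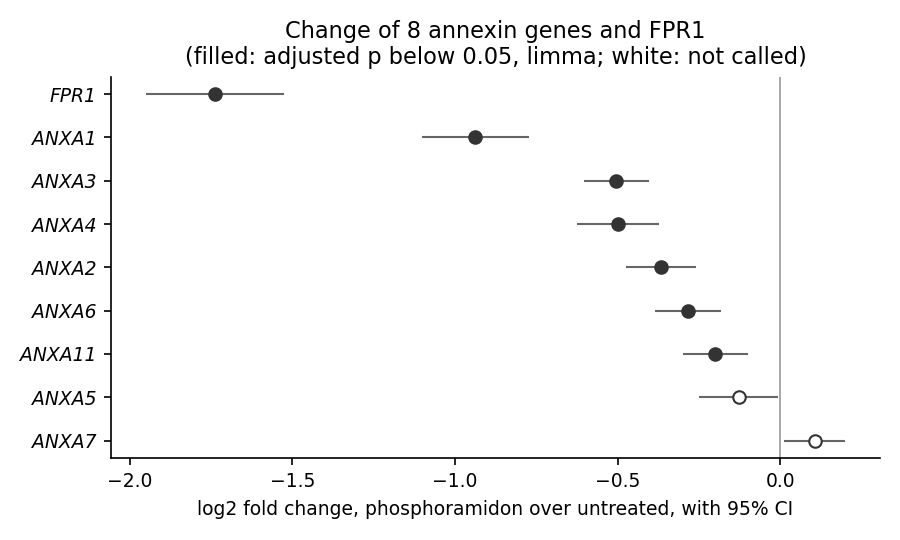
Log2 fold change of 8 annexin genes and FPR1, phosphoramidon over untreated, with 95% intervals from limma. Filled points passed an adjusted p of 0.05, and the 2 open points, ANXA5 and ANXA7, did not.

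On the deposited FPKM, 8 of the 9 tested members had groups that did not overlap, against 49.7% of all tested genes. In 7 of the 9 the groups did not overlap and the treated libraries were the lower ones, against 18.4% of all tested genes.

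The order of the annexins by level changed with ANXA1. Order and shares between genes depend on the length by which each gene's fragments were divided, 2925 bases for ANXA5 and 8824 for ANXA2. By fragments ANXA2 was the higher in untreated libraries, with 19454 to 20564 against 12667 to 12909 for ANXA5. In untreated cells the mean FPKM ran ANXA5, ANXA2, ANXA7, ANXA1, ANXA3, ANXA11, ANXA6, ANXA4 and ANXA10, with ANXA5 at rank 116 and ANXA2 at rank 295 of 16175 tested genes. ANXA1 and ANXA3 were the only neighbours whose libraries overlapped. With phosphoramidon the order was ANXA5, ANXA2, ANXA7, ANXA3, ANXA11, ANXA1, ANXA6, ANXA4 and ANXA10, so that ANXA1 had moved below ANXA3 and ANXA11, and only ANXA1 and ANXA6 overlapped. ANXA5 and ANXA2 together made up 65.9% ± 1.13 of the summed annexin FPKM in untreated cells and 66.9% ± 1.62 with phosphoramidon (SD, n = 3 each). The sum over the 9 annexins was 417 ± 2.37 FPKM without and 374 ± 8.68 FPKM with the inhibitor, with no overlap.

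Ratios within a library do not depend on the scaling between libraries and are given as a description, without a test. ANXA7 to ANXA1 was 1.96, 1.76 and 1.71 in untreated libraries and 3.76, 3.79 and 3.65 with phosphoramidon, so every treated library was above every untreated one. ANXA1 to FPR1, the ligand over the receptor, was 4.73 ± 0.548 without and 8.55 ± 0.840 with the inhibitor, and the groups did not overlap. ANXA5 to ANXA2 was 1.93 ± 0.0559 and 2.27 ± 0.0715, also with no overlap. ANXA3 to ANXA4, by contrast, was 2.65 ± 0.0650 and 2.65 ± 0.207, with overlapping groups.

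**Figure D3:**
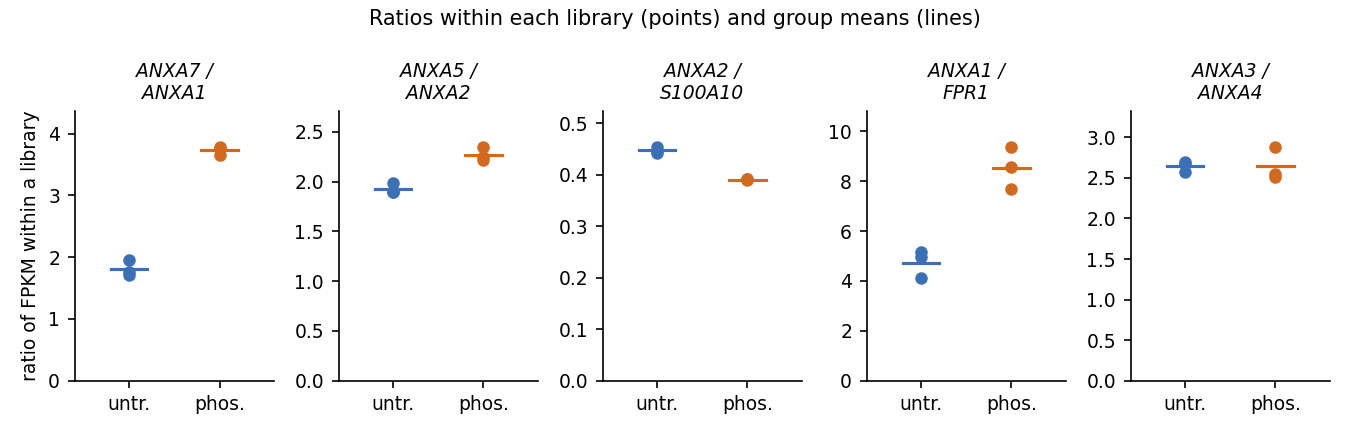
Ratio of FPKM between pairs of genes within each library, with 1 point per library, a line at each group mean and axes that start at 0. ANXA7 to ANXA1, ANXA5 to ANXA2 and ANXA1 to FPR1 were higher in every treated library, ANXA2 to S100A10 was lower, and ANXA3 to ANXA4 overlapped.

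The genes whose values over the 6 libraries were most like those of FPR1 were EDN1, ADGRG1 and INHBA. Likeness was the root mean square distance between log2 values with each gene's mean subtracted, over 12274 genes, and it is mostly set by a similar fold change. EDN1, which encodes the precursor of endothelin-1, lay at a distance of 0.11 and went from 3.64 ± 0.447 to 1.02 ± 0.0510 FPKM. ADGRG1, an adhesion G protein-coupled receptor, lay at 0.14 and went from 21.2 to 6.82 FPKM, and INHBA, a subunit of activin, lay at 0.15 and went from 1.65 to 0.408 FPKM. For ANXA1 the nearest were GUCY1A1, a subunit of soluble guanylate cyclase, at 0.05, the tryptophan-catabolic enzyme KYNU at 0.06 and the tetraspanin TSPAN10 at 0.08. Exons of TSPAN10, at 0.406 to 0.960 FPKM, overlap those of NPLOC4 on the other strand, which had a mean of 24.0 FPKM.

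Outside the set, annexins were scarce. ANXA9 lay at 1.19 to 1.58 FPKM without and 1.31 to 1.54 FPKM with phosphoramidon and did not pass (limma adjusted p = 0.78). The sign of its change flipped with no factor, without untreated replicate 1 and without phosphoramidon replicate 3. ANXA8 with 1 to 13 fragments, its near copy ANXA8L1 with 0 to 3 and ANXA13 with 3 to 9 were too low to test. ANXA2R, named as a receptor of annexin A2, rose from 8, 11 and 16 fragments to 25, 19 and 26 (log2 fold change 0.88 ± 0.24, limma adjusted p = 0.020). Its exons overlap those of another gene, AC025171.2, which had a higher mean of 1.28 FPKM. ANXA2R was no longer called with no filter (adjusted p = 0.13), nor when untreated replicate 1 (0.068) or 2 (0.055) or phosphoramidon replicate 1 (0.060) or 3 (0.066) was left out.

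Of the S100 partners, 4 of 4 tested fell, with a median log2 fold change of -0.53, where 17.9% of all tested genes (26.0% of those with a mean of at least 5 FPKM) were called lower and the median was 0.01. In either direction 33.6% (45.6%) were called. This list and those below were chosen with earlier results of these data known, so their counts are descriptions only. S100A10, the partner of annexin A2, had 212, 207 and 211 FPKM without and 207, 191 and 190 FPKM with phosphoramidon (log2 fold change -0.17 ± 0.05, limma adjusted p = 0.028). S100A10 was no longer called with no factor (adjusted p = 0.080) or no filter (0.079), nor when untreated replicate 1 (0.083) or 3 (0.074) or phosphoramidon replicate 2 (0.097) or 3 (0.086) was left out. ANXA2 to S100A10 was 0.448 ± 0.00627 in untreated libraries and 0.391 ± 0.000825 in treated ones, so the annexin was lower relative to its partner in every treated library. S100A11, the partner of annexin A1, went from 296 ± 15.0 to 246 ± 24.4 FPKM (-0.34 ± 0.08 on the log2 scale, limma adjusted p = 0.015), a call lost with no filter (0.067) and without untreated replicate 3 (0.052). S100A6, whose exons overlap those of BX470102.1 (mean 1.89 FPKM), went from 254 ± 12.1 to 161 ± 10.6 FPKM (-0.73 ± 0.06, limma adjusted p = 6.1e-05), and S100A4 from 4.03 ± 0.507 to 2.19 ± 0.560 FPKM (-0.94 ± 0.19, limma adjusted p = 0.0071).

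Of 4 tested genes of surface plasminogen activation, 1 fell and 1 rose, with a median log2 fold change of -0.14. Over all tested genes 33.6% were called, 17.9% lower and 15.6% higher. PLAU, which encodes urokinase, had 42.5, 44.7 and 41.7 FPKM without and 23.2, 21.7 and 23.4 FPKM with phosphoramidon (log2 fold change -0.98 ± 0.04, limma adjusted p = 4.3e-06). PLAT, the tissue-type activator, rose by 0.31 (limma adjusted p = 0.032). PLAT was no longer called with no filter (adjusted p = 0.12), with the replicate number as a block (0.052), or when untreated replicate 1 (0.097), 2 (0.057) or 3 (0.054) or phosphoramidon replicate 1 (0.094) or 2 (0.098) was left out. PLAUR (limma adjusted p = 0.083) and PLGRKT (0.42) did not pass, though PLAUR did with the replicate block (0.047), with voom (0.044) and without untreated replicate 3 (0.016), and plasminogen itself, PLG, was listed at 0 in all libraries.

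In the list for membrane repair and ALG-2 partners, 5 of 8 tested genes fell, against the same 17.9% of all tested genes (26.0% of those with a mean of at least 5 FPKM), and none passed in the other direction. In either direction 33.6% of all tested genes (45.6% of those with that mean) were called. The median log2 fold change of the list, which was also chosen with earlier results known, was -0.28. DYSF, which encodes dysferlin, a membrane repair protein that acts with annexins, went from 12.2 ± 0.717 to 7.85 ± 0.435 FPKM (log2 fold change -0.70 ± 0.06, limma adjusted p = 8.7e-05). Its relative MYOF, the calpains CAPN1 and CAPN2 and the penta-EF-hand protein PEF1 fell by 0.26 to 0.35 on the log2 scale. AHNAK, PDCD6 and SRI, the last encoding sorcin, a partner of annexin A7, did not pass (limma adjusted p = 0.11, 0.65 and 0.11). With no factor between libraries AHNAK (0.25, adjusted p = 0.040) and SRI (0.19, adjusted p = 0.015) were higher.

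Annexin A5 binds exposed phosphatidylserine, and of 7 tested genes listed here for the exposure of this lipid, 3 rose and none fell. Their median log2 fold change was 0.09. Scramblases expose the lipid and flippases return it inward, so the count gives no direction for exposure. Of all tested genes 15.6% were called higher, and 19.5% of those with a mean of at least 5 FPKM. In either direction 33.6% of all tested genes were called, and 45.6% of those with that mean, so 3 of 7 is near the overall share. The scramblase ANO6, whose exons overlap those of PLEKHA8P1 (mean 3.18 FPKM), went from 19.3 ± 0.532 to 24.6 ± 0.338 FPKM (log2 fold change 0.28 ± 0.04, limma adjusted p = 0.0010), and the flippase ATP11A from 19.9 ± 0.763 to 25.7 ± 0.880 FPKM (0.29 ± 0.05, limma adjusted p = 0.0020). The flippase subunit TMEM30A rose by 0.13 (limma adjusted p = 0.022), but was no longer called when untreated replicate 1 (0.068) or 3 (0.053) or phosphoramidon replicate 2 (0.076) or 3 (0.066) was left out. Annexin A1 is known to restrain phospholipase A2, and of 6 tested genes of phospholipase A2 and prostaglandin synthesis, PTGES and PTGS1 fell and none rose. These 2 of 6 are near the 33.6% of all tested genes called in either direction, of which 17.9% were called lower. The median of these 6 genes was -0.13. PTGES, a prostaglandin E synthase, went from 15.6 ± 1.26 to 12.6 ± 0.206 FPKM (-0.37 ± 0.07, limma adjusted p = 0.0030). PTGS1, a cyclooxygenase, fell by 0.32 (limma adjusted p = 0.039), but its adjusted p ran from 0.063 to 0.11 without untreated replicate 1, 2 or 3 or phosphoramidon replicate 2 or 3, and was 0.076 with no factor and 0.12 with no filter. PLA2G4A, the cytosolic phospholipase A2, did not pass (log2 fold change -0.64, limma adjusted p = 0.061), but did with the replicate block (0.043), with voom (0.035) and without untreated replicate 1 (0.011).

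**Figure D4:**
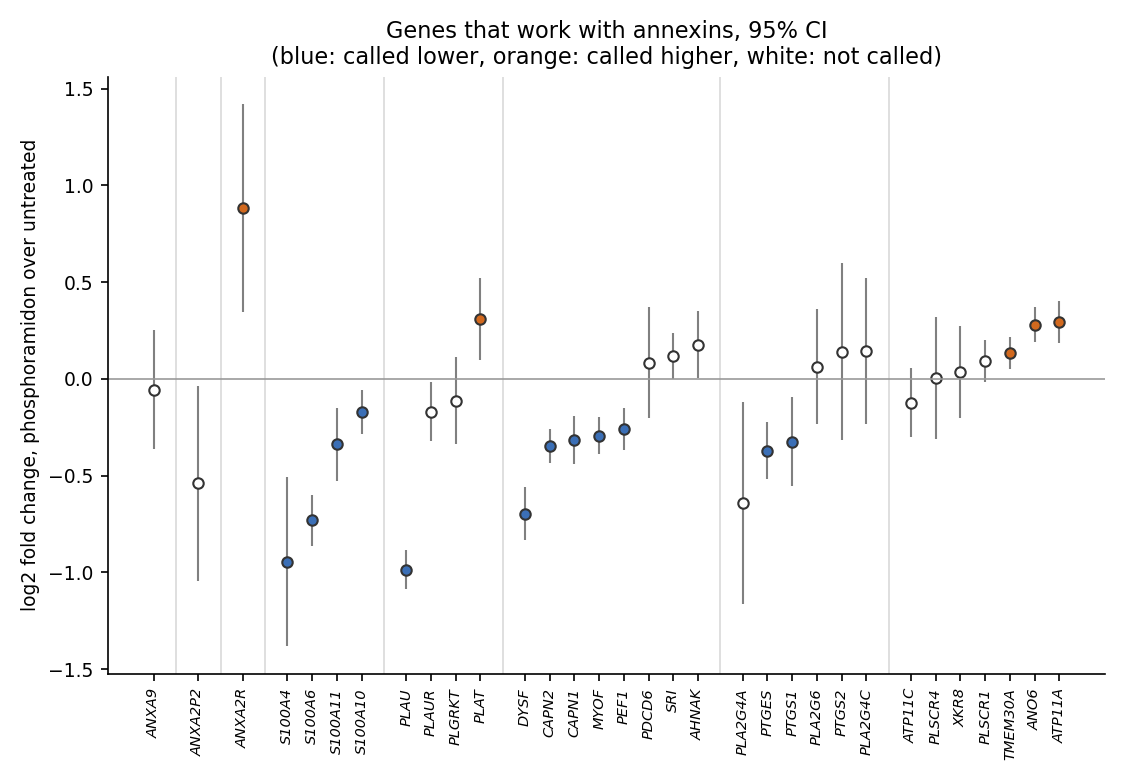
Log2 fold change of the tested genes of 8 lists of annexin relatives, partners and pathway genes, phosphoramidon over untreated, with 95% limma intervals and vertical lines between lists. Blue points were called lower, orange points higher and white points not called. The 4 S100 genes and 5 membrane repair genes are blue, and 3 scramblase or flippase genes of the phosphatidylserine list are orange.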

How the data were processed

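Per the values and the file contents, the authors deposited FPKM per Ensembl gene ID for each library. Per the submitters' processing notes, which state neither roles nor order, the tools included HISAT2 2.1.0, featureCounts 1.6.0, Trimmomatic 0.38 and DESeq2 1.22.1, along with MultiQC, FastQC and CASAVA, and the build was GRCh38. Which annotation release was used, and whether strand or read pairs were counted, is not given in the sources used here. Symbols came from a gene name table (37892 of 38126 IDs matched), and coordinates from GENCODE 29.

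FPKM times gene length fell on whole steps, within 0.05, at the GENCODE 29 length for 79.2% of 34623 genes above 0. For the others, ANXA1, ANXA3, ANXA4, ANXA5 and ANXA6 among them, a length giving whole fragments was searched.

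Genes with at least 10 such fragments in at least 3 libraries were tested with limma 3.58.1 (R 4.3.3; trended, robust) on log2(FPKM divided by a TMM factor + 0.1), a scale that understates changes of low genes. The TMM factors were first computed over all genes and then, with results seen, over the tested genes. P-values were adjusted by Benjamini-Hochberg, with a threshold of 0.05, and treat tested changes over 1.5-fold. The fit was also run on simulated data in which far fewer genes changed than were called here, so that run cannot vouch for these calls. The members and lists were chosen with earlier results of these data known. All members, the other annexins and their pseudogenes are named, with called genes of the other lists (the 5 lowest p-values at most) and the 3 genes most like FPR1 and ANXA1. Genes that were not called are also given, and 1 gene of the lists is not reported here. Alternatives are given at the end.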

Additional observations from a re-analysis of the deposited data

How the results depend on the processing

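The 7 members called lower kept that call with each library left out, other factors, other pseudocounts, other filters, voom and the replicate block. Against a 1.5-fold change 1 member passed (FPR1), or 2 (FPR1 and ANXA1) with TMM factors over all genes, an alternative chosen after seeing the data. No member changed sign. Across alternatives the log2 fold change of FPR1 ran from -1.80 to -1.35 and that of ANXA1 from -1.02 to -0.87. Same-numbered replicates were not shown to be paired (correlations of their deviations 0.111, -0.0207 and -0.0114, and not every library correlated best with its own number), and the model with the replicate block called 5454 genes, against 5432 without it, and 8 members, adding ANXA5 (adjusted p = 0.043). Voom also called ANXA5 (0.021). Genes called numbered 3517 with no filter and 130 against a 1.5-fold change (139 with TMM factors over all genes). Genes called lower numbered 2901, and 106 (119) against 1.5-fold. Genes called higher numbered 2531, 1543 with no filter and 24 (20) against 1.5-fold. Within-library ratios do not depend on the factors. Depth limits what can be said of genes on few fragments, such as ANXA10, FPR2, FPR3, ANXA8 and ANXA2R.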
